A study of Mus musculus with 2 samples.

Results

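The miR-181 family was measured in small RNA from exosomes, the small vesicles that cells release, shed by cultured mouse pancreatic islets. The 6 members were taken by name from the single deposited table: mmu-miR-181a-5p, mmu-miR-181b-5p, mmu-miR-181c-5p, mmu-miR-181d-5p, mmu-miR-181a-1-3p and mmu-miR-181c-3p, where the prefix stands for mouse. All 6 were listed among 677 known miRNAs and 2083 entries in all, and 5 of the 6 had at least 10 counts in one of the libraries. The names miR-181a-2-3p and miR-181b-2-3p, which are no members but come from the same hairpins, are given beside them. Their mature sequences show that all 5p members have 1 seed, the stretch that pairs with target mRNAs.

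The libraries were 1 from C57BL/6 mice on a normal chow diet with 4% fat (NCD) and 1 from C57BL/6 mice on a high-fat diet with 60% fat (HFD). Islets of both groups were kept for 1 week in medium depleted of serum exosomes, and vesicles were pelleted by ultracentrifugation from medium taken daily. Neither the number of mice or islet preparations behind a library nor the age of the mice is stated in the labels. With 1 library per diet no spread between animals can be estimated, so differences below are between these libraries, and intervals cover counting error only.

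MicroRNAs are cut from hairpin transcripts in 2 steps, by Drosha in the nucleus and Dicer in the cytoplasm, and 1 strand of the resulting duplex is loaded into Argonaute to repress mRNAs. For this family the loaded strand is mostly that of the 5p arm, and the 3p arm is the strand that is mostly discarded. miR-181 is best known in the thymus, where miR-181a sets the sensitivity of the T cell receptor by repressing phosphatases. It is also expressed in brain and endothelium, where miR-181b dampens NF-kB signalling, and miR-181c acts on a mitochondrial transcript in rat heart cells.

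The mature sequences below, from RefSeq (GRCm38.p6), are shown because the split of reads between members rests on a few bases. Capitals mark the seed, bases 2 to 8 counted from the 5′ end.
miR-181a-5p: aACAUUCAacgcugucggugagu
miR-181b-5p: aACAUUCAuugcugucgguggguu
miR-181c-5p: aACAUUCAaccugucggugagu
miR-181d-5p: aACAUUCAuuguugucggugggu
miR-181a-1-3p: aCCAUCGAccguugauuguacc
miR-181a-2-3p: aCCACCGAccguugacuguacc
miR-181c-3p: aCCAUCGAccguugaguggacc
miR-181b-2-3p: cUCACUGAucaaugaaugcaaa

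The 4 5p members share the seed ACAUUCA, and no name outside the family among 1679 mature names of the reference has it. With positions counted from the 5′ end of the first-named miRNA, miR-181a-5p and miR-181c-5p differ by 1 edit, the loss of the G at position 11 in miR-181c-5p. miR-181b-5p and miR-181d-5p differ by the substitution C12U and by 1 end base. miR-181a-5p and miR-181b-5p differ by A9U, C10U and A21G and by 1 end base. The 4 3p arms shown have 3 seeds among them. miR-181a-1-3p and miR-181c-3p share CCAUCGA, whereas miR-181a-2-3p differs from miR-181a-1-3p by U5C, within the seed, and by U16C. No source at hand says how reads matching several entries were divided. miR-199a-3p and miR-199b-3p had equal counts, 324 in NCD and 371 in HFD, so reads may have been counted in more than 1 entry. For the miR-181 members that was not tested.

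The family is encoded by 6 hairpins in 3 pairs (GRCm38). Mir181a-1 lies on chromosome 1 from 137966455 to 137966541 and Mir181b-1 from 137966639 to 137966718, both on the plus strand, with 97 bases between them. Both lie within an intron of the non-coding gene Gm4258 and overlap an exon of the lincRNA A430106G13Rik on that strand. Mir181a-2 (38852735 to 38852810) and Mir181b-2 (38853830 to 38853918) lie on the plus strand of chromosome 2, 1019 bases apart, in an intron of the nuclear receptor gene Nr6a1, which is on the opposite strand. Mir181d (84178716 to 84178787) and Mir181c (84178873 to 84178961) lie on the minus strand of chromosome 8 in an intron of Nanos3, 85 bases apart. The hairpins of miR-181a below, with the mature arms in capitals, are shown because both give the same 5p miRNA and are told apart by the 3p arm.
Mir181a-1: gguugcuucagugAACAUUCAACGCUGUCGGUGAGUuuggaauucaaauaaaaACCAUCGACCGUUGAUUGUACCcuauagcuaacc
Mir181a-2: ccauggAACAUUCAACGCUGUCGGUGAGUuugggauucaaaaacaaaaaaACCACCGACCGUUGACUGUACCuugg

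The libraries held 2417589 counts (NCD) and 2020831 counts (HFD), and a single count stood for 0.414 and 0.495 counts per 1000000 counts (CPM). The islet marker miR-375-3p was abundant in both, at 81756 and 83261 CPM, and the hepatocyte marker miR-122-5p was the highest entry in both, at 321158 and 241944 CPM. A known miRNA counted as measured when either library held 10 or more counts. Over the 387 such miRNAs the median log2 ratio of HFD over NCD was 0.33, computed with 1 CPM added to each value. Of these, 98 were at least 2-fold higher in HFD (25.3%), 37 at least 2-fold lower (9.56%) and 252 within 2-fold (65.1%).

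miR-181a-5p and miR-181b-5p made up nearly all of the family in both libraries, and each had more CPM in HFD by less than 2-fold. The rare members miR-181c-5p and miR-181d-5p were past 2-fold higher and the rare strand miR-181a-1-3p past 2-fold lower. Of the 5 measured members, 2 were therefore higher and 1 lower, where 25.3% and 9.56% of all known miRNAs were. These 3 members had between 15 and 19 counts in their larger library and at most 5 in the other. They reached the minimum of 10 only through the library where they were high and so had to differ, and nothing is read from their number. In a range chosen after the values were seen, 78 known miRNAs had 10 to 20 counts in the larger library, and 37.2% of them were past 2-fold higher and 19.2% past 2-fold lower. In bulk exosome RNA, fewer vesicles of a cell type and less miRNA per vesicle cannot be told apart.

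mmu-miR-181a-5p, the T cell receptor tuning member, was read 1230 times in NCD and 1831 times in HFD, which is 509 and 906 CPM. It ranked 79 and 64 among the known miRNAs. Its ratio was 1.78 (95% exact counting interval 1.66 to 1.92), a log2 ratio of 0.83. Of the 387 known miRNAs, 267 had a lower log2 ratio.

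mmu-miR-181b-5p, the member studied in endothelial inflammation, had 345 and 383 counts, or 143 and 190 CPM. Its ratio was 1.33 (1.15 to 1.54), a log2 ratio of 0.41 that lay close to the median of 0.33 over the known miRNAs. The counting intervals of miR-181a-5p and miR-181b-5p did not overlap. There were 3.57 reads of miR-181a-5p for each of miR-181b-5p in NCD and 4.78 in HFD, so that this proportion was 1.34 times as high in HFD (1.14 to 1.58).

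mmu-miR-181c-5p, the member with a mitochondrial target in the rat, was absent from the NCD counts (0 reads) and had 15 reads in HFD, which is 7.42 CPM. A count of 0 allows up to 1.24 CPM in NCD, taken as 3 counts in that library. The exact counting interval of its ratio started at 4.29. Set against 3 counts in NCD it was at least 5.98-fold higher in HFD, a value that leaves out the counting error of the 15 reads. It was the only one of the 5 members whose whole counting interval lay beyond 2-fold. With 10 CPM added in place of 1, its log2 ratio was 0.80 in place of 3.07, and so within 2-fold.

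mmu-miR-181d-5p, encoded beside miR-181c, had 5 and 19 counts, or 2.07 and 9.40 CPM. Its ratio was 4.55 (1.64 to 15.6), an interval that starts below 2-fold. With 10 CPM added its log2 ratio was 0.69 in place of 1.76.

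Because the rare members differ from the abundant ones by few bases, they were also set against their closest relative. miR-181c-5p was 0 of 1230 reads of miR-181a-5p and miR-181c-5p together in NCD, which allows a share of up to 0.244% by the rule of 3 counts and 0.299% by the exact binomial interval. In HFD it was 15 of 1846, or 0.813% (95% exact binomial interval 0.455 to 1.34). miR-181d-5p was 5 of 350 reads of miR-181b-5p and miR-181d-5p in NCD, or 1.43% (0.465 to 3.30), and 19 of 402 in HFD, or 4.73% (2.87 to 7.28). The share of the rarer miRNA was higher in HFD in both pairs, and the intervals of the second pair overlapped. Whether misassigned reads had a part in the counts of the rare members was not tested.

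**Figure D1:**
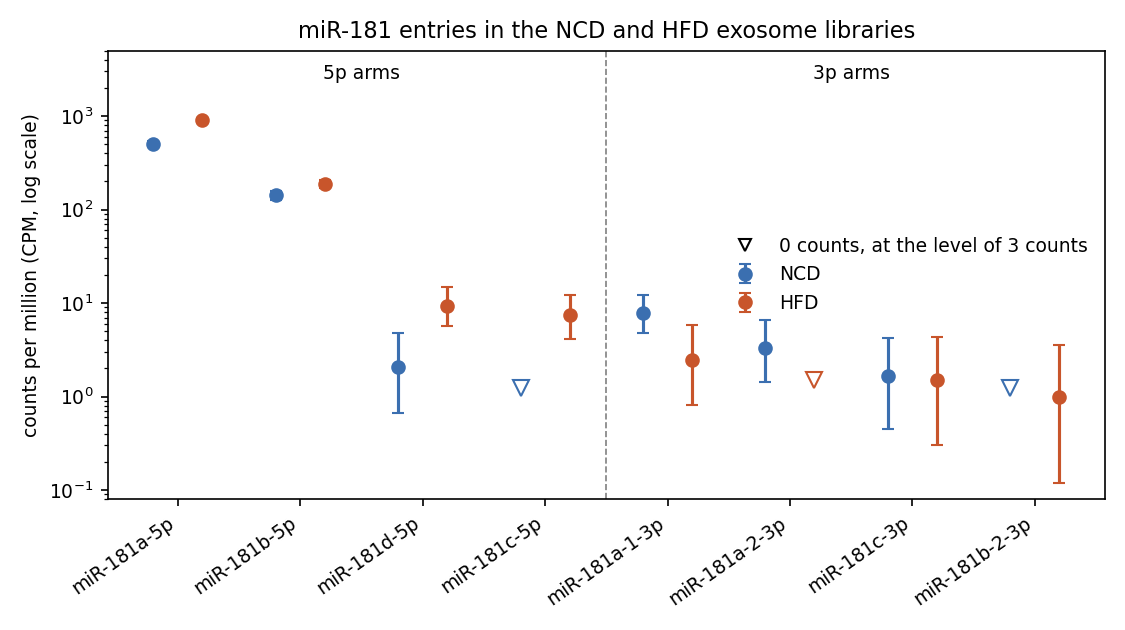
CPM (log axis) of the 8 miR-181 entries in the NCD (blue) and HFD (orange) libraries, with 95% exact binomial counting intervals as bars. Open triangles mark an entry with 0 counts, drawn at the level of 3 counts. The 5p members all sit higher in HFD, whereas miR-181a-1-3p has 7.86 CPM in NCD and 2.47 in HFD.

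The summed 5p reads were 1580 in NCD and 2248 in HFD, which is 654 and 1112 CPM. The summed ratio does not depend on how reads were split between the members, provided that each read was counted once. It was 1.70 (1.60 to 1.82), or 0.77 on the log2 scale. It was 0.62 under TMM factors and 0.51 under median-of-ratios size factors, while these scalings shifted the median of the known miRNAs by -0.15 and -0.26.

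The make-up of the 5p reads differed between the libraries. miR-181a-5p was 77.8% of them in NCD (75.7 to 79.9) and 81.5% in HFD (79.8 to 83.0). miR-181b-5p was 21.8% in NCD (19.8 to 24.0) and 17.0% in HFD (15.5 to 18.7). The chromosome 8 members miR-181c-5p and miR-181d-5p together were 0.316% in NCD (0.103 to 0.737) and 1.51% in HFD (1.05 to 2.11). The intervals of the 2 libraries overlapped marginally for miR-181a-5p and did not overlap for miR-181b-5p or for the chromosome 8 pair.

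By locus, miR-181a-5p and miR-181b-5p, which the chromosome 1 and 2 hairpins give, had a summed ratio of 1.68 (1.58 to 1.80). The chromosome 8 members had 5 and 34 counts, a ratio of 8.14 (3.17 to 26.6). The second ratio was 4.84 times the first (1.88 to 15.9). On the log2 scale with 1 CPM added the difference between the loci was 1.79, and 0.41 with 10 CPM added. The 5p reads do not show which of the chromosome 1 and 2 hairpins they came from.

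**Figure D2:**
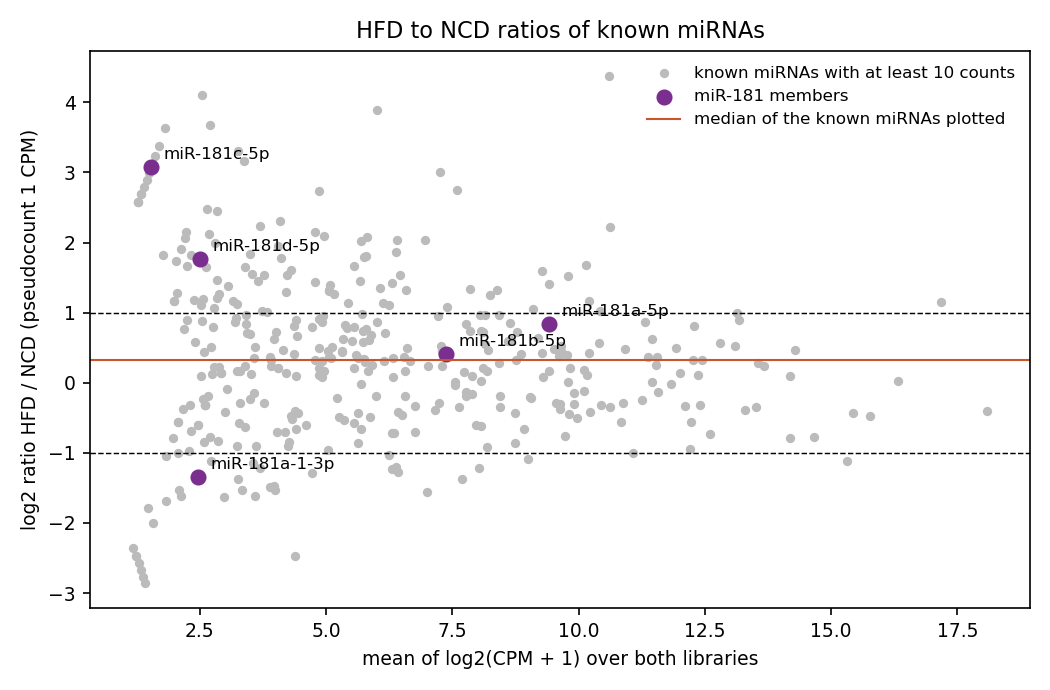
The log2 ratio of HFD over NCD with 1 CPM added (vertical axis) against the mean log2(CPM + 1) over both libraries (horizontal axis) for the 387 measured known miRNAs. Purple points are the 5 miR-181 members so measured, dashed lines mark 2-fold and the orange line the median of 0.33. The abundant miR-181a-5p and miR-181b-5p lie within 2-fold, and the members beyond it lie among rare miRNAs with widely spread ratios.

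The 3p strands of miR-181a had fewer reads in HFD, whereas the 5p strand of the same hairpins had more. mmu-miR-181a-1-3p, from the chromosome 1 hairpin, was read 19 times in NCD and 5 times in HFD, which is 7.86 and 2.47 CPM. It was 3.18-fold lower in HFD (1.15 to 10.9), a log2 ratio of -1.35, and 22 of the 387 known miRNAs had a lower log2 ratio. As it is among the 387 only through its NCD count, nothing is read from that rank. With 10 CPM added the log2 ratio was -0.52, within 2-fold.

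miR-181a-2-3p, from the chromosome 2 hairpin, had 8 and 0 counts. The nearer end of the exact counting interval was 1.43-fold lower in HFD. Set against 3 counts in HFD it was at least 2.23-fold lower, a value that leaves out the counting error of the 8 reads. The miR-181a 3p strands of both loci thus had fewer reads in HFD, 27 and 5 in sum, which was 4.51-fold lower (1.71 to 15.0). They are the entries that tell the loci of miR-181a apart, and reads of the chromosome 2 strand were seen in NCD only, at a depth where 0 counts in HFD allow up to 1.48 CPM.

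mmu-miR-181c-3p had 4 counts in NCD and 3 in HFD, under the minimum of 10, with a ratio of 0.897 (0.131 to 5.30) that allows either direction. miR-181b-2-3p had 0 and 2 counts, too few for a fold. All 4 3p entries together had 31 and 10 counts, or 2.59-fold lower in HFD (1.24 to 5.93).

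Arm balance compares strands within a library and needs no scaling between libraries. For miR-181a-5p against miR-181a-1-3p there were 64.7 reads of the 5p strand per read of the 3p strand in NCD and 366 in HFD. The balance was 5.66 times further towards the 5p strand in HFD (2.03 to 19.4). Set against both miR-181a 3p entries the change was 8.04 times (3.04 to 26.8), and over all 5p and 3p entries 4.41 times (2.10 to 10.1). For miR-181c the 5p strand had 0 reads and the 3p strand 4 in NCD, against 15 and 3 in HFD, with a counting interval for the change from 1.96 upwards. For miR-181b the 5p strand had 345 reads and the 3p strand of the chromosome 2 hairpin 0 in NCD, against 383 and 2 in HFD, which allows either direction.

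Shifts of at least 2-fold in either direction were common among other hairpins. The other arms with at least 10 counts in either library were paired by hairpin in RefSeq or by name, which gave 103 pairs, some of which share an arm. Of these, 21 moved at least 2-fold towards the 5p arm (20.4%) and 27 towards the 3p arm (26.2%), with 0.5 added to each count. The median log2 change was -0.27, and the quartiles were -1.07 and 0.73. The log2 change of 2.40 of miR-181a was exceeded by 9 of the 103. With each pair turned to its more abundant arm, 13 moved at least 2-fold towards that arm and 35 away from it, and 3 exceeded miR-181a. miR-181a-1-3p, with 19 and 5 counts, reached the minimum of 10 only in NCD, where it was high. The minimum thus favoured a shift towards the 5p arm in HFD, and nothing is read from the place of miR-181a among the pairs.

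**Figure D3:**
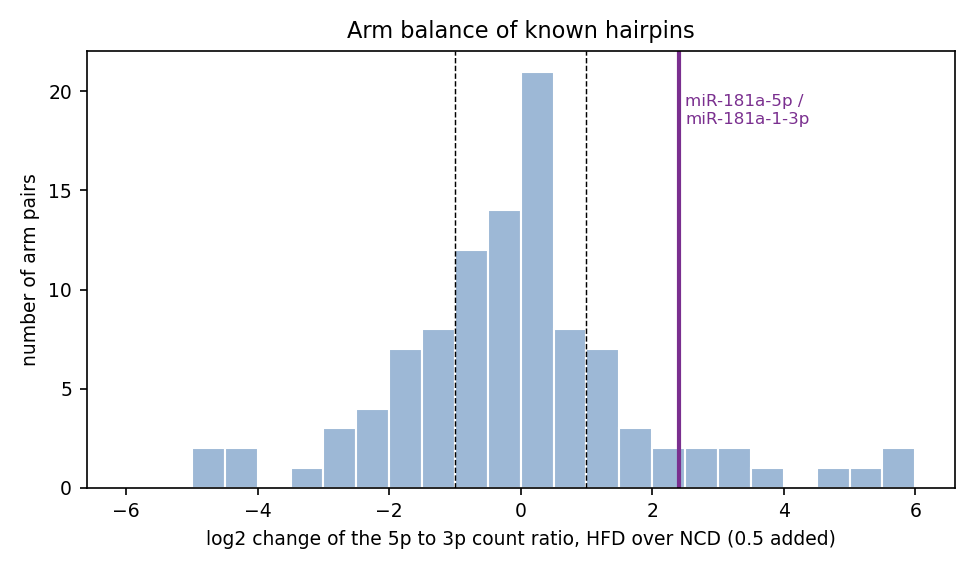
Histogram of the log2 change in the ratio of 5p to 3p counts, HFD over NCD, with 0.5 added to each count, for 103 arm pairs of known miRNAs outside the family. Dashed lines mark 2-fold and the purple line marks the change of 2.40 for miR-181a-5p against miR-181a-1-3p, which 9 of the pairs exceeded.

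Base composition went with the ratio across the 207 known miRNAs that reached 100 counts, 180 of which had a sequence in the reference. The log2 ratio was 0.39 lower for every 10 percentage points more G and C (Pearson's r -0.41 across miRNAs, which are no independent replicates). The 5p members had 43.5 to 47.8% G and C, near the median of 47.6% of these miRNAs, and the 3p strands of miR-181a had 50% and 59.1%. With the linear trend removed, the log2 ratio was 0.82 for miR-181a-5p, 0.32 for miR-181b-5p and -1.28 for miR-181a-1-3p. These entries were near the median in G and C, so the trend had little room to move them. Further from it, at 59.1%, miR-181a-2-3p went from -2.11 to -1.68 and miR-181c-3p from -0.10 to 0.33. At 36.4%, miR-181b-2-3p went from 0.99 to 0.53. These strands had at most 8 counts in a library.

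In the authors' deposited table the log2 fold changes were 0.68 for miR-181a-5p, 0.26 for miR-181b-5p, 2.01 for miR-181d-5p and -1.79 for miR-181a-1-3p. The authors' deposited table gave an FDR under 0.05 to 4 of the 8 miR-181 entries, miR-181a-5p, miR-181c-5p, miR-181d-5p and miR-181a-2-3p, against 18.0% of all entries and 23.8% of the known miRNAs. Those values were matched by the exact test of edgeR with an assumed biological coefficient of variation of 0.1, so they rest on no measured spread. With an assumed coefficient of 0.2 only miR-181c-5p of these entries was under 0.05, and with 0.4 none was.

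The 4 known miRNAs closest to miR-181a-5p in level, by distance over log2(CPM + 1) in the 2 libraries, were miR-434-3p, miR-494-3p, miR-411-5p and miR-146a-5p. miR-434-3p was nearest, at 622 and 867 CPM and a distance of 0.30. Ratios were 1.39 for miR-434-3p, 1.56 for miR-494-3p, 1.34 for miR-411-5p and 2.67 for miR-146a-5p.

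Markers of cell types in which the family is known are given beside it. Of 6 measured leukocyte miRNAs 4 were past 2-fold higher and 0 lower, where 25.3% and 9.56% of all measured known miRNAs were. Their median was 1.21 on the log2 scale, against 0.33 for all known miRNAs. Under TMM or median-of-ratios factors 3 of them were higher, with medians of 1.06 and 0.96, against 0.18 and 0.07 for all measured known miRNAs. With the whole counting interval required beyond 2-fold, 2 of them were higher. Their summed level was 2033 CPM in NCD and 3529 in HFD. The most abundant, miR-142a-5p of blood cells, had 1115 and 1656 CPM, and miR-150-5p of mature lymphocytes had 385 and 482 CPM. miR-146a-5p, induced by NF-kB, had 419 and 1118 CPM. miR-181a-5p, at 1.78, lay between the ratios of miR-150-5p, at 1.25, and miR-146a-5p, at 2.67, the lowest and highest of the measured leukocyte miRNAs. The ratio of miR-181a-5p also lay within those of the T cell, endothelial, islet endocrine, hepatocyte and erythroid lists below. It lay outside those of the neuronal, striated muscle and acinar lists.

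A second list held 11 miRNAs of T cell selection and activation, the setting in which miR-181a is best known, and 3 of the leukocyte markers with at least 10 counts are in it too. Of its 9 measured members 5 were past 2-fold higher and 0 lower, beside the same 25.3% and 9.56%, with a median of 1.07. They ran from miR-92a-3p, of the miR-17 to 92 cluster, at a ratio of 0.924 to miR-19b-3p of the same cluster, at 12.2 with 6 and 61 counts. The most abundant, miR-21a-5p, had 3787 and 6608 CPM. miR-182-5p, among the 5 past 2-fold higher at 116 and 245 CPM, is also counted with the islet endocrine miRNAs below. Under TMM or median-of-ratios factors 4 members of this list were past 2-fold higher, with medians of 0.93 and 0.82.

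Both endothelial markers were within 2-fold, as were 65.1% of all measured known miRNAs. Their median was 0.86 and their sum 6396 and 12750 CPM. miR-126a-3p carried most of it, at 6341 and 12659 CPM. Its ratio of 1.996 (1.957 to 2.037) lay at the limit of 2-fold, which its counting interval crosses. None of 3 measured neuronal miRNAs was past 2-fold, with a median of 0.11 and a sum of 7772 and 4688 CPM. With TMM or median-of-ratios factors that median was -0.03 and -0.14, and 1 member, miR-128-3p, was past 2-fold lower. miR-128-3p had 6607 and 3417 CPM and miR-129-5p 1101 and 1192, whereas the defining miR-124-3p had 2 counts and 1 count and miR-138-5p 0 and 2.

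The other lists covered further cell types, and stand beside 25.3% higher and 9.56% lower over all measured known miRNAs. Of 6 islet endocrine miRNAs 2 were higher and 0 lower (median 0.67), of 4 hepatocyte miRNAs 2 and 0 (1.53), of 4 striated muscle miRNAs 4 and 0 (2.72), of 4 acinar miRNAs 4 and 0 (1.28) and of 4 erythroid miRNAs 0 and 0 (0.40). With TMM or median-of-ratios factors 1 islet endocrine and 2 acinar miRNAs were past 2-fold higher. Their summed levels in NCD and HFD were 86672 and 90352 CPM for islet endocrine, 322086 and 245753 for hepatocyte, 440.1 and 7674 for striated muscle, 99807 and 221096 for acinar and 58718 and 51273 for erythroid miRNAs. The hepatocyte sum was almost wholly that of miR-122-5p, at 321158 and 241944 CPM, with a ratio of 0.753. The higher hepatocyte members were miR-192-5p and the rarer strand miR-122-3p. The acinar sum was almost wholly that of the widely expressed miR-148a-3p, at 99722 and 220847 CPM. The most abundant of the other acinar miRNAs, miR-216b-5p, had 47.6 and 129 CPM. The part of these cell types in the miR-181 values was not tested.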

How the data were processed

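Per the file headers, the authors' table holds for each library a raw count of reads per mature miRNA. The authors' TPM column equals the count divided by the total of its column, times 1000000, and was found to use no miRNA length. The deposited p-values, FDR and log2 fold changes set HFD against NCD, per the file headers. An exact test in edgeR 4.0.16, using TMM factors and an assumed coefficient of variation of 0.1, gave the same p-values to within 6.55e-15. Per the submitters' processing notes, the genome build was GRCm38. The aligner, the miRNA caller and the treatment of multiple matches are not stated in the labels or headers.

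CPM were computed from the counts over the total of the table. Log2 ratios used a pseudocount of 1 CPM. Ratios without it have 95% exact (Clopper-Pearson) counting intervals conditional on the sum of both counts, and changes of balance have exact conditional odds ratio intervals (scipy 1.17.1). Without molecular identifiers, PCR copies may be counted as separate reads, so that intervals and the floor of 3 counts cover counting error only. Entries reaching 10 counts in either library were measured, and at least 2-fold either way was the fixed rule of size. No test between diets was possible with 1 library each. The interval calculation was tested on simulated data. Sequences and loci came from RefSeq (GRCm38.p6), where 595 of 677 known names matched, with overlapping genes from GENCODE M21.

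All members were named, with the other entries called miR-181, the 4 nearest miRNAs and, from lists, abundant and extreme members. Members, lists and the rule were chosen with earlier results of these data known. Alternatives were TMM factors, median-of-ratios size factors (DESeq2 1.42.0), totals without the 5 most abundant miRNAs, totals of named miRNAs, the deposited TPM, pseudocounts of 0.1 and 10 CPM, other count minimums, the whole counting interval and removal of the trend with GC content. The assumed coefficients of 0.2 and 0.4 were added after seeing the data.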

Additional observations from a re-analysis of the deposited data

How the results depend on the processing

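The direction of miR-181a-5p, miR-181b-5p, miR-181c-5p, miR-181d-5p, miR-181a-1-3p and the summed 5p members was the same under each of the 8 alternatives run for it. Among these, the deposited TPM and the total of named miRNAs leave the values as they were by construction or nearly so. The other pseudocounts cannot reverse a direction, because the same amount is added to both libraries. That leaves TMM factors, median-of-ratios size factors, totals without the 5 most abundant miRNAs and removal of the GC trend. The 3 scalings shifted the median log2 ratio of the known miRNAs by -0.15, -0.26 and -0.09. Each shift was smaller in size than every log2 ratio named here, so these scalings could not reverse a direction. For miR-181c-5p, with 0 counts in NCD, no scaling could. The unchanged directions are therefore no test of them. miR-181c-3p, with 4 and 3 counts, changed sign in 1, with the GC trend removed (log2 ratio 0.33). The summed 5p log2 ratio was 0.62 with TMM factors and 0.51 with median-of-ratios size factors, which use no correction for the totals because both came out as 1. The numbers of members past 2-fold, 2 higher and 1 lower, were the same with totals that leave out the 5 most abundant miRNAs, with TMM factors and with median-of-ratios size factors. They became 0 and 0 with a pseudocount of 10 CPM, which exceeds the level of the rare members, and 0 and 0 at a minimum of 100 counts, which removes them. With the whole counting interval required beyond 2-fold they were 1 and 0. The log2 ratio of the chromosome 8 5p members minus that of the other 5p members was 0.41 with a pseudocount of 10 CPM. The log2 change of the miR-181a arm balance was 2.50, and 2.40 to 3.01 under its alternatives. Depth limits the 3p strands, miR-181c-5p and miR-181d-5p, which had at most 19 counts. No paired analysis was possible because each diet has 1 library. Leaving out a library was not possible for the same reason.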
